A study of Mus musculus with 24 samples.

Results

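Death receptor and necroptosis genes were followed in the cortex of mice given conduritol B-epoxide (CBE), a compound that blocks glucocerebrosidase, the lysosomal enzyme lost in Gaucher disease. The genes were chosen by name: the receptors Tnfrsf1a, Tnfrsf1b and Fas, the signalling proteins Fadd, Casp8, Cflar and Ripk1, and the necroptosis genes Ripk3, Mlkl and Zbp1. Of these 10, 9 were measured among 22180 genes, each by 1 probe set that the platform annotation pairs with that gene alone; Ripk1 is not analysed here. The study models the neuronopathic form of the disease in inbred mice of 4 strains, labelled SV129, FVB, C57 (C57BL/6JOlaHsd) and C3H, all male and aged 18 days. CBE was injected into the peritoneum at 25 mg/kg each day between days 8 and 18, and control mice received phosphate-buffered saline (PBS); no group carries a mutation or transgene named in the labels. Each of the 8 groups held 3 numbered samples with 1 array each, 24 arrays in all; the labels do not say in so many words that each sample is a separate mouse, so p-values measure the spread between these samples. The tissue was the slice of a young mouse brain that contained the cortex, so the RNA came from all of its cells, and fewer cells of a type cannot be told apart from less RNA per cell.

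When TNF binds its receptor TNFR1 (Tnfrsf1a) or Fas ligand binds Fas, adaptor proteins gather a complex at the receptor that can lead to survival, apoptosis or necroptosis. Casp8 drives apoptosis and, paired with Cflar, cuts the kinases Ripk1 and Ripk3; where Casp8 is held back, Ripk3 phosphorylates Mlkl, which breaches the plasma membrane. Zbp1 is a sensor of nucleic acids in the Z conformation that binds Ripk3 directly and is itself induced by interferon. In brain, Ripk3 has been implicated in this disease model, which is why its level is of interest here.

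The arrays gave log2 signal that the authors had normalized. Over all probe sets and arrays the median was 4.18, array medians lay between 4.14 and 4.22, and correlations between arrays of 1 group lay between 0.989 and 0.993. The cortex label was checked with marker genes: all 10 neuronal markers and 6 of 7 markers of excitatory cortical neurons had a mean signal above the 95th percentile of the olfactory receptor genes. So did 5 of 8 markers of the thalamus, whose mean was higher in the SV129 PBS group (6.02 ± 0.07) than in the other PBS groups (5.73 to 5.77). Those 1105 receptor genes, which belong to the nose, give the signal of genes that cortex is not known to use: the middle 90% of their means ran from 3.32 to 4.60. None of the 6 markers of T and B cells and none of the 8 markers of monocytes and neutrophils lay above that percentile. Changes are given as log2 CBE minus PBS ± the standard error (SE) of a linear model fitted with limma to all genes and arrays, and adjusted p is Benjamini-Hochberg over the 22180 genes with 0.05 as the threshold. Group levels are means ± SD of 3 arrays.

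The 9 genes fell into 3 ranges of signal. Casp8 and Cflar stood out of the background, with means over 24 arrays of 6.64 and 5.14, above 100% and 98.7% of the olfactory receptor genes. Tnfrsf1a (4.48), Fas (4.31), Zbp1 (4.23) and Tnfrsf1b (4.10) lay in the upper part of the olfactory receptor range, above 93.0%, 88.6%, 85.7% and 79.2% of those genes. Fadd (3.66), Mlkl (3.62) and Ripk3 (3.61) lay in its lower part, above 37.8%, 32.2% and 30.3% of them, and their signal was below the median of all probe sets on 24 of 24 arrays. Signal of different probe sets cannot be compared as amounts of RNA, so these ranks place each gene against background only. The means of 7 of the 9 genes lay within the background range, where a change of the RNA may not be detectable.

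**Figure D1:**
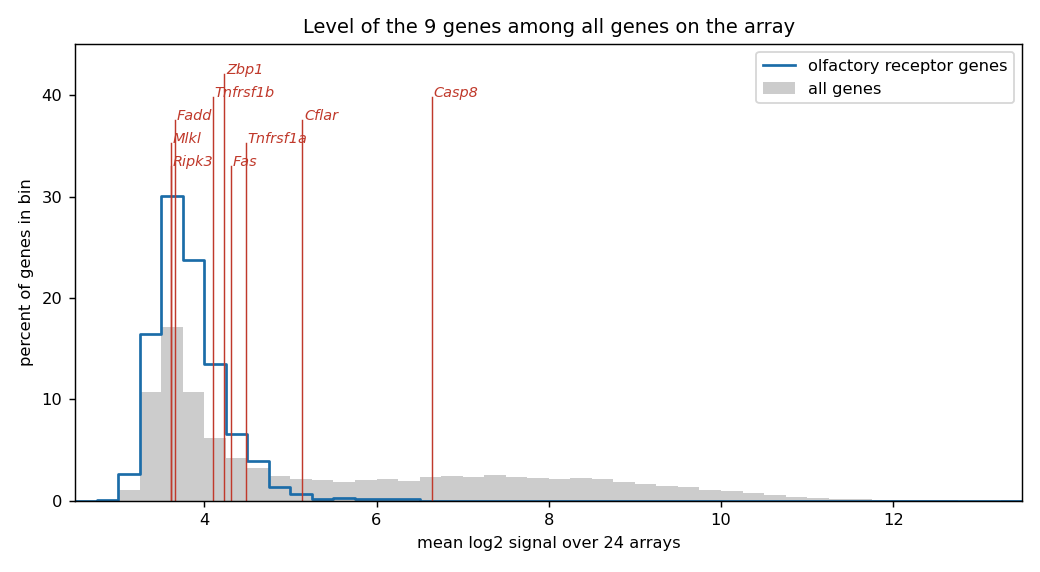
Percent of genes (y axis) by mean log2 signal over 24 arrays (x axis, bins of 0.25) for all genes in grey and olfactory receptor genes as a blue line, with a red line at each of the 9 genes whose height carries no value. Ripk3, Mlkl and Fadd lie at the peak of the olfactory receptor genes, while Casp8 (6.64) and Cflar (5.14) lie to the right of nearly all of them.

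The PBS levels of the 9 genes were compared between strains. By the limma F-test of equal PBS means, 0 of 9 passed (13% of all genes did) and 1 had an unadjusted p under 0.05 (26% of all genes did). The gene with the unadjusted call was Fas, a death receptor that recruits Fadd, at adjusted p = 0.093. Its PBS level was 4.42 ± 0.13 in SV129, 4.24 ± 0.13 in C3H, 4.10 ± 0.05 in C57 and 3.92 ± 0.18 in FVB. Neighbours in that order lay close together, and the widest gap, SV129 minus FVB, was 0.50 ± 0.14 (adjusted p = 0.057). Tnfrsf1a, the main TNF receptor of most cells, ran from 4.14 ± 0.25 in C3H through 4.36 ± 0.04 in FVB and 4.43 ± 0.22 in SV129 to 4.48 ± 0.09 in C57. Tnfrsf1b, the second TNF receptor, which has no death domain, ran from 3.89 ± 0.17 in C3H to 4.29 ± 0.41 in C57, where the arrays read 4.76, 4.10 and 4.03. Casp8 ran from 6.41 ± 0.13 in C3H to 6.70 ± 0.03 in C57, and Cflar, a protease-dead relative of Casp8, from 4.97 ± 0.05 in FVB to 5.26 ± 0.35 in SV129. Zbp1 ran from 3.85 ± 0.03 in SV129 to 4.04 ± 0.08 in FVB. Fadd, Ripk3 and Mlkl had PBS means within 3.47 to 3.70 in every strain. For all 9 genes the strain order of PBS levels is therefore a description of means that did not pass the test.

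**Figure D2:**
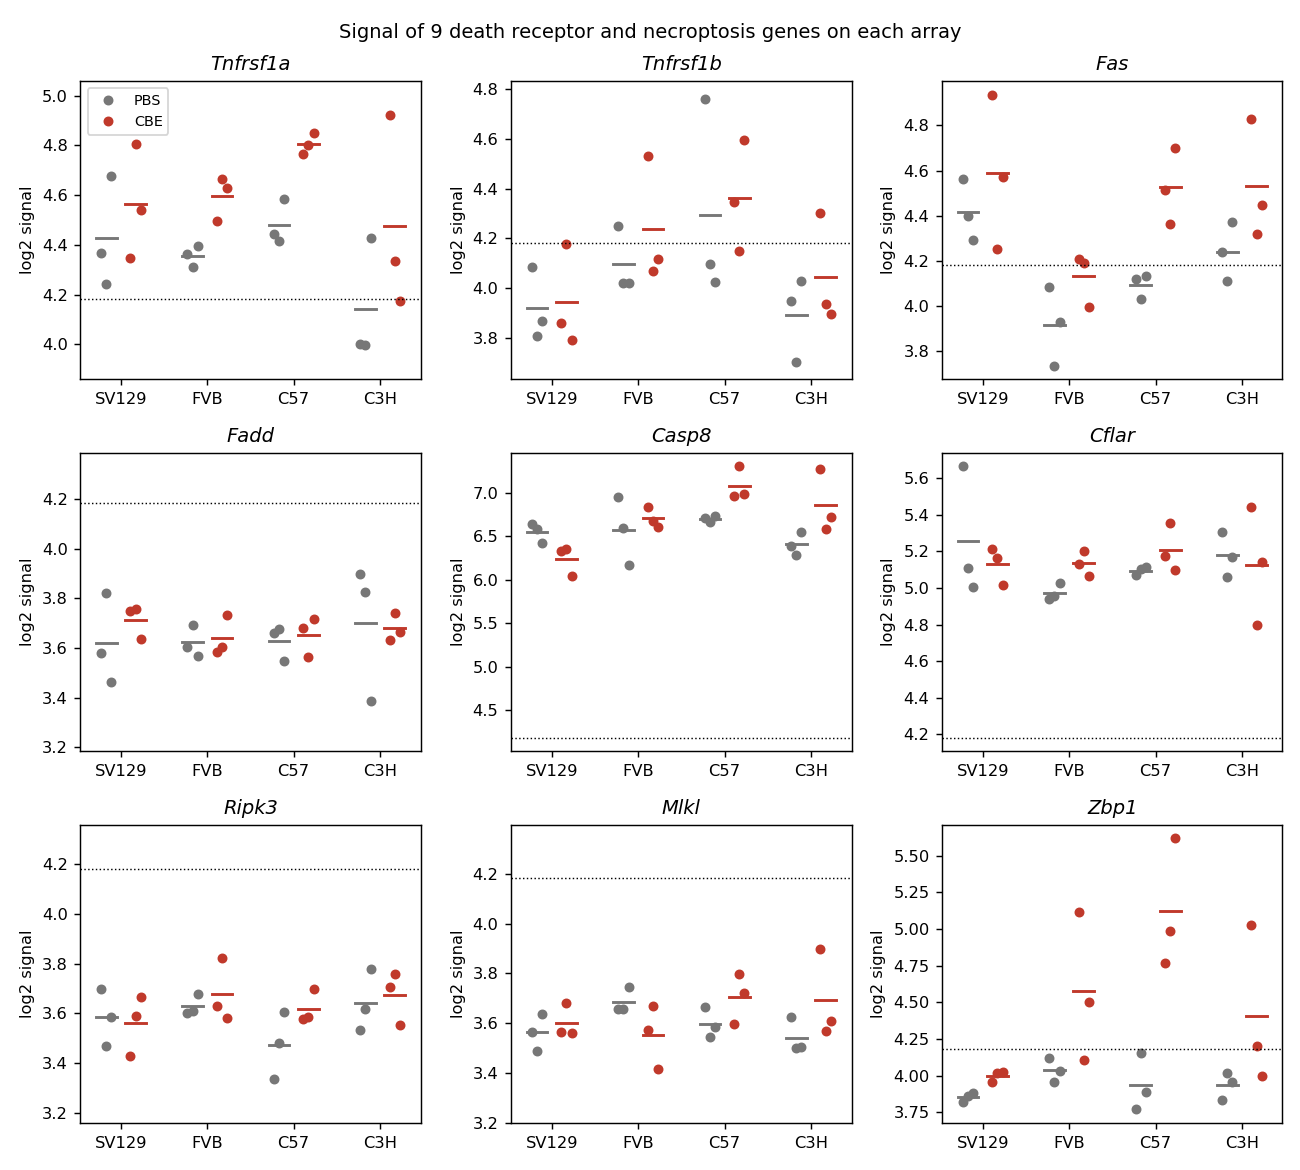
Log2 signal of each gene (y axis, a scale of its own per panel) on every array, by strain (x axis), with PBS in grey and CBE in red; short bars are group means of 3 arrays and the dotted line is the median of all probe sets, 4.18. Zbp1 is the gene whose CBE arrays spread furthest above PBS, while Ripk3, Mlkl and Fadd stay under the dotted line on every array.

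In the mean of the 4 strain differences 1 of the 9 genes rose with CBE, Zbp1, and the other 8 did not pass the threshold. The background for this comparison is 161 of 22180 genes, or 0.726%. At an unadjusted p under 0.05 there were 3 of 9 genes, Zbp1, Fas and Tnfrsf1a, all higher in CBE, against 10.7% of all genes and 3.98% in the upward direction. The mean difference was above 0 for 9 of 9 genes, as it was for 44.4% of all genes, and the median was 0.10 for the 9 genes and -0.01 for all genes. The difference was above 0 in each of the 4 strains for 4 of 9 genes, the 3 receptors and Zbp1, as for 6.38% of all genes.

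Zbp1 (probe set 17395079) rose by 0.59 ± 0.12, or 1.5-fold with a 95% confidence interval of 1.27 to 1.77 (adjusted p = 0.011), and lay above its own strain's PBS mean on 12 of 12 CBE arrays, as 0.546% of all genes did. By size this was the 69th largest rise of the 22180 genes. In C57 the PBS arrays read 3.77, 4.16 and 3.89 and the CBE arrays 4.77, 4.99 and 5.62. All 3 CBE arrays lay above all 3 PBS arrays, and the change of 1.19 ± 0.23, or 2.27-fold, passed the threshold (adjusted p = 0.021; 0.325% of all genes passed in C57). In FVB the PBS arrays read 4.12, 3.95 and 4.03 and the CBE arrays 5.12, 4.10 and 4.51. Here 1 CBE array stood high and another lay within the PBS range, and the change was 0.54 ± 0.23 (adjusted p = 0.74), or 0.27 without FVB CBE array 1. In C3H the PBS arrays read 3.84, 4.02 and 3.95 and the CBE arrays 5.03, 4.20 and 3.99. Again 1 array carried most of the difference: the change was 0.47 ± 0.23 (adjusted p = 0.99), or 0.16 without C3H CBE array 1. In SV129 the PBS arrays read 3.82, 3.86 and 3.88 and the CBE arrays 3.96, 4.02 and 4.02. These groups did not overlap either, but the change was small, 0.14 ± 0.23 (adjusted p = 0.85), with the spread taken from all 8 groups. That spread was uneven: the SD was 0.03 and 0.04 in the SV129 groups and 0.44 to 0.55 in the other CBE groups. All 12 PBS values lay between 3.77 and 4.16, within the background range, and the highest CBE value was 5.62.

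The C57 call for Zbp1 depended on single arrays. It was lost without C57 PBS array 1 (adjusted p = 0.14) or 3 (0.087) and without C57 CBE array 2 (0.054) or 3 (0.21, where the change was 0.94), and the call in the mean of 4 strains was lost in an ordinary linear model without moderated variances (0.064). An exact permutation test of 3 against 3 arrays cannot go below p = 0.1. With the spread taken from the 6 C57 arrays alone in place of all 24, limma gave Zbp1 an adjusted p of 0.047. Fitted in the same way to their own 6 arrays, SV129 gave 0.58, FVB 0.80 and C3H 0.9998.

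Of the receptors, Fas and Tnfrsf1a came next in size after Zbp1. Fas (17358797) was higher by 0.28 ± 0.07, or 1.21-fold (adjusted p = 0.10), and lay above its own PBS mean on 11 of 12 CBE arrays. In C57 its PBS arrays read 4.12, 4.03 and 4.13 and its CBE arrays 4.52, 4.36 and 4.70. The groups did not overlap there, with a difference of 0.43 ± 0.14 (adjusted p = 0.52); in FVB, C3H and SV129 they overlapped, with differences of 0.21, 0.29 (0.14 without C3H CBE array 1) and 0.17 (-0.0038 without SV129 CBE array 1). Without SV129 CBE array 2 the mean difference was 0.32 and passed (adjusted p = 0.022). Tnfrsf1a (17463184) was higher by 0.26 ± 0.08, or 1.2-fold (adjusted p = 0.16), on 11 of 12 CBE arrays. Its CBE arrays lay above all PBS arrays in FVB, where PBS read 4.36, 4.31 and 4.39 and CBE 4.49, 4.66 and 4.63. They did so in C57 too, where PBS read 4.44, 4.41 and 4.58 and CBE 4.77, 4.80 and 4.85. In C3H and SV129 they overlapped, with differences of 0.34 and 0.14; the former was 0.11 without C3H CBE array 1 and the latter 0.016 without SV129 CBE array 2. Tnfrsf1b (17432674) differed by 0.10 ± 0.09 (adjusted p = 0.76), its groups overlapped in all 4 strains, and its strain differences ran from 0.02 in SV129 to 0.15 in C3H, the latter 0.023 without C3H CBE array 1. Fas and Tnfrsf1a thus showed small positive differences that did not pass the adjusted test and that depended on single arrays in C3H and SV129.

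Among the signalling proteins, Casp8 (17213213) was the brightest and the only 1 of the 9 genes whose CBE arrays separated from PBS in opposite directions in different strains. In SV129 the PBS arrays read 6.65, 6.59 and 6.42 and the CBE arrays 6.33, 6.36 and 6.04, so all CBE arrays were lower. The mean of the 8 thalamus markers was lower too: it spanned 5.96 to 6.10 in SV129 PBS and 5.72 to 5.76 in SV129 CBE. That fall was led by Slc17a6 (-0.85) and Ntng1 (-0.82), while the median difference of the 8 markers in SV129 was -0.12. The 7 markers of excitatory cortical neurons had a median difference of -0.28 in SV129. The part of either list in the SV129 changes was not tested. In C57 PBS read 6.71, 6.67 and 6.73 and CBE 6.96, 7.31 and 6.98, so all CBE arrays were higher. In C3H PBS read 6.39, 6.29 and 6.55 and CBE 7.27, 6.59 and 6.72, again with all CBE arrays higher. The SV129 difference was -0.31 ± 0.17 and that of FVB 0.14 ± 0.17; C57 gave 0.38 ± 0.17 and C3H 0.45 ± 0.17 (0.25 without C3H CBE array 1), with adjusted p from 0.45 to 0.96, and their mean was 0.16 ± 0.08 (adjusted p = 0.49). Of all genes, 8.99% had every CBE array below every PBS array in SV129, and 0.406% had this together with every CBE array above in C57. The latter share is for these strains in this order only. Separation in opposite directions in any strains, which would be more frequent, was not counted over all genes. Cflar (17213192) differed by 0.02 ± 0.07 in the mean (adjusted p = 0.95). Its strain differences were 0.16 in FVB, 0.11 in C57, -0.05 in C3H and -0.13 in SV129 (0.075 without SV129 PBS array 1). Its CBE arrays lay above all PBS arrays in FVB only among the 4 strains. Fadd (17498461), the adaptor that links the receptors to Casp8, differed by 0.03 ± 0.05 (adjusted p = 0.91), with strain differences from -0.02 in C3H to 0.09 in SV129.

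The necroptosis kinase and its effector gave no detectable change at these signal levels. For Ripk3 (17306906) the PBS arrays read 3.70, 3.47 and 3.58 in SV129, 3.60, 3.61 and 3.68 in FVB, 3.34, 3.48 and 3.60 in C57, and 3.53, 3.62 and 3.78 in C3H. The CBE arrays read 3.43, 3.59 and 3.67 in SV129, 3.63, 3.82 and 3.58 in FVB, 3.58, 3.58 and 3.70 in C57, and 3.71, 3.76 and 3.55 in C3H. In all 4 strains the groups overlapped and every value, from 3.34 to 3.82, lay within the background range, whose median was 3.75. The mean difference was 0.05 ± 0.05 (adjusted p = 0.76), with a 95% confidence interval of 0.97 to 1.11 as a fold of array signal, and the largest strain difference was 0.15 ± 0.09 in C57 (adjusted p = 0.96). Mlkl (17513076) differed by 0.04 ± 0.04 (adjusted p = 0.81), with an interval of 0.97 to 1.09 as a fold. Its strain differences were -0.14 in FVB, 0.04 in SV129, 0.11 in C57 and 0.15 in C3H (0.048 without C3H CBE array 1), with overlapping groups throughout; the highest of its 24 values, 3.90, was C3H CBE array 1. Because both genes lay within background, these narrow intervals describe the probe sets and do not bound a change of the RNA itself.

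**Figure D3:**
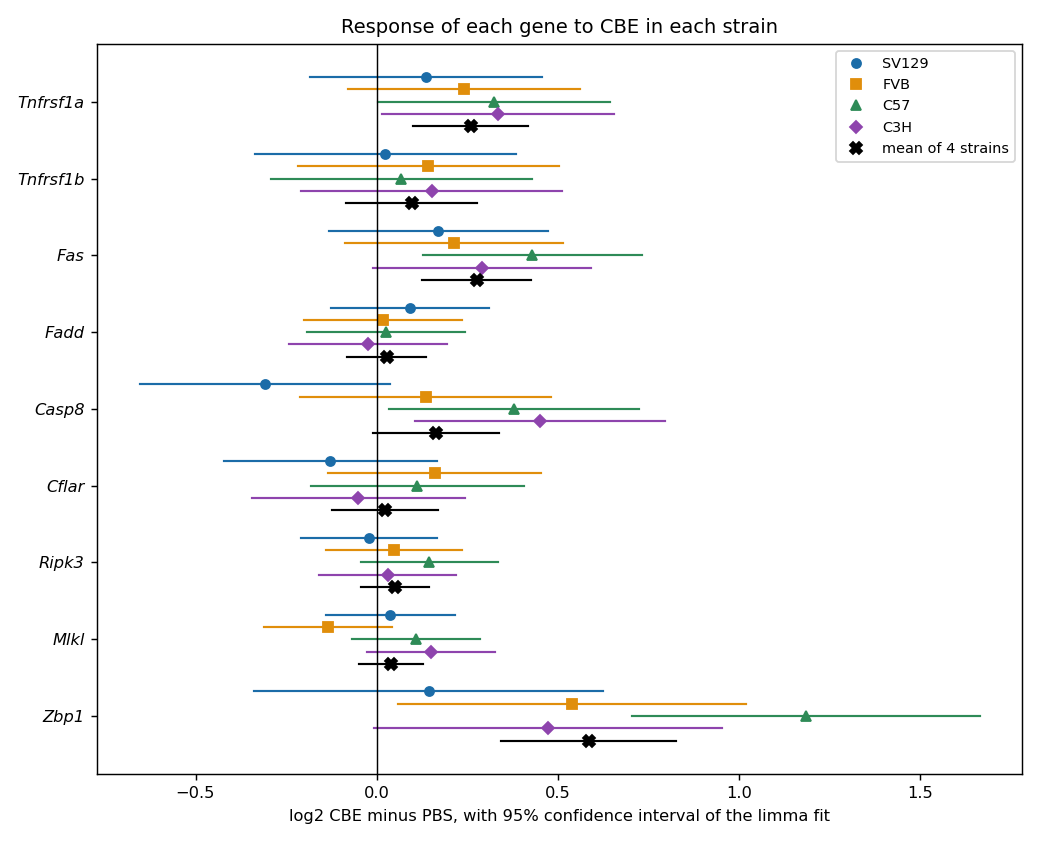
Log2 CBE minus PBS (x axis) for each gene (y axis) in each strain and in the mean of 4 strains, with 95% confidence intervals of the limma fit before adjustment. Zbp1 has the largest difference, 1.19 in C57, Casp8 spans from -0.31 in SV129 to 0.45 in C3H, and Ripk3, Mlkl and Fadd stay near 0.

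Counted by strain, 1 of 9 genes passed in C57 and 0 of 9 in SV129, FVB and C3H, where 0.113%, 0.135% and 0.0361% of all genes passed. At an unadjusted p under 0.05 the limma fit gave 0 of 9 genes in SV129 (13% of all genes), 1 in FVB (6.27%), 4 in C57 (5.78%) and 2 in C3H (5.02%). CBE arrays lay above all PBS arrays for 4 genes in C57 (Tnfrsf1a, Fas, Casp8 and Zbp1), where 5.82% of all genes did so. They did so for 2 genes in FVB (Tnfrsf1a and Cflar; 5.09% of all genes), 1 in C3H (Casp8; 4.5%) and 1 in SV129 (Zbp1; 6.52%). The 9 genes had a median difference of 0.04 in SV129, while FVB gave 0.14, C57 0.15 and C3H 0.15, beside medians over all genes between -0.01 and 0.00. These medians moved with single arrays: C3H gave 0.048 without C3H CBE array 1, FVB 0.071 without FVB CBE array 1, and C57 0.30 without C57 PBS array 1, while SV129 ran from -0.00098 to 0.10 with each of its arrays left out. Whether the strains differed was tested directly with the F-test of equal differences, which 0 of 9 genes passed (0.00902% of all genes did); 2 genes, Casp8 and Zbp1, had an unadjusted p under 0.05 (6.57% of all genes did), with adjusted p of 0.66 and 0.74. For Zbp1 the SV129 response minus the C57 response was -1.04 ± 0.33 (adjusted p = 0.34), and for Casp8 it was -0.69 ± 0.24 (adjusted p = 0.41). The response of neither gene is thus shown to differ between strains. For 3 of the 9 genes, Casp8, Cflar and Mlkl, all 3 CBE arrays lay below their PBS mean in 1 strain and above it in another, as for 28.1% of all genes. In C57, 1 array of Cflar and 1 of Mlkl lay above that mean by only 0.00012 and 2.3e-05.

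Arrays with a high Zbp1 were set beside 2 other groups of genes. Both lists were chosen with earlier results of these data known, so their counts are a description. Over all genes, 0.726% passed in the mean of 4 strains, in either direction. Of 17 measured interferon-stimulated genes (Ifit1, Isg15, Usp18 and others, without Zbp1), 15 rose in the mean of 4 strains, and their mean signal was above PBS on every CBE array. That mean rose above its strain's PBS mean by 1.35, 1.57 and 1.74 on the C57 CBE arrays, where Zbp1 was up by 0.83, 1.05 and 1.68, and by 0.63, 0.42 and 0.62 on the SV129 CBE arrays, where Zbp1 was up by 0.10, 0.16 and 0.17. In C3H the array with the highest interferon mean also had the highest Zbp1, with 1.61, 0.81 and 0.69 for the interferon list and 1.09, 0.27 and 0.06 for Zbp1. In FVB the interferon mean was up by 0.78, 1.24 and 1.09 and Zbp1 by 1.08, 0.07 and 0.47, so the array with the highest Zbp1 had the lowest interferon mean. Within SV129, too, the arrays did not run in the same order: the one with the highest interferon mean had the lowest Zbp1. Of 13 microglia markers, genes of the resident phagocytes of brain, 4 rose, and the mean of the list spanned 6.25 to 6.39 in SV129 CBE, 6.68 to 6.78 in FVB CBE, 6.94 to 7.08 in C57 CBE and 6.59 to 7.55 in C3H CBE. In PBS it spanned 6.12 to 6.42, 6.18 to 6.30, 6.51 to 6.73 and 6.33 to 6.40 in the same order; the part of microglia in the changes of the 9 genes was not tested. C3H CBE array 1 stood apart in both lists, and it was the highest of the 3 C3H CBE arrays for 7 of the 9 genes (32.3% of all genes).

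**Figure D4:**
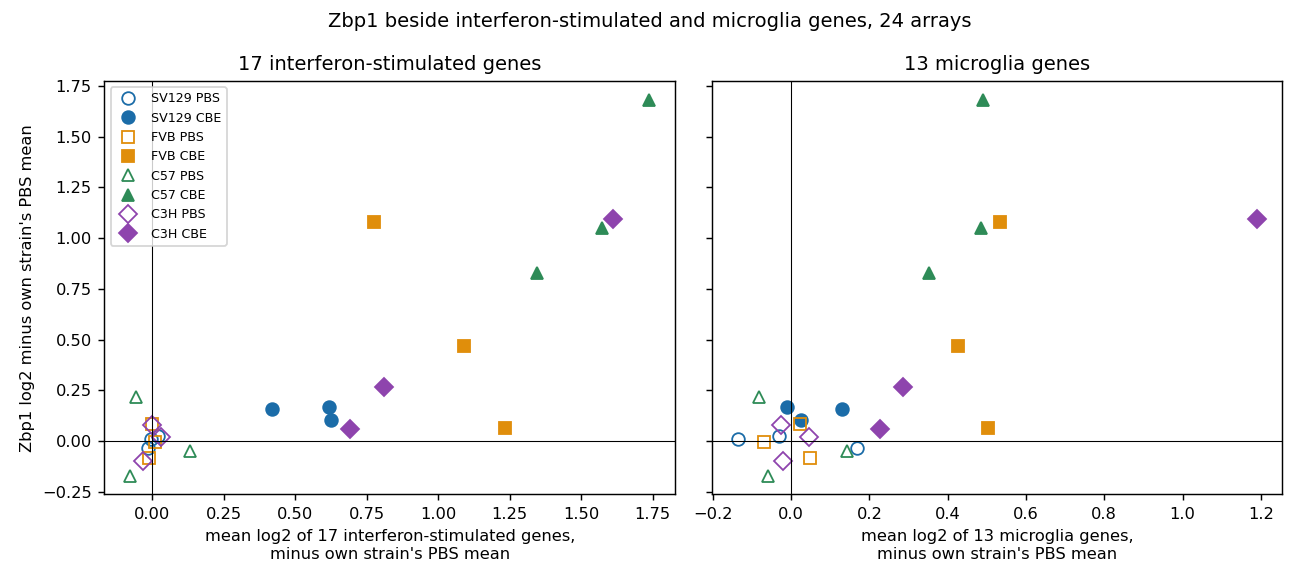
Zbp1 signal minus its own strain's PBS mean (y axis, log2) against the mean of 17 interferon-stimulated genes (left) and 13 microglia markers (right), each minus its own strain's PBS mean (x axes, log2), for 24 arrays; open symbols are PBS, filled symbols CBE, and colour marks strain. The C57 CBE arrays reach 1.74 on the interferon axis and 1.68 for Zbp1, and the SV129 CBE arrays stay at 0.63 and 0.17 or below.

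The genes whose pattern was most like that of Zbp1 were found by Pearson correlation of the deviations from each strain's PBS mean over the 24 arrays, which share the same normalization. Predicted genes, clones and RNA genes were left out of this search by their symbols. The closest of the rest were Oasl1 (r = 0.91), Parp14 (0.90), Ddx58 (0.89), Ddx60 (0.89) and Lpcat2 (0.88). Of these, 4 rose in the mean of 4 strains, Parp14 by 0.72 and Ddx58 by 0.68, Ddx60 by 0.26 and Oasl1 by 0.25, while Lpcat2 differed by 0.25 (adjusted p = 0.23). For Ripk3 the closest genes were Mx1 (r = 0.74), Sox11 (0.71), Gja3 (0.68), Fgd3 (0.68) and Stab2 (0.66), of which 0 of 5 passed the threshold. These correlations are descriptions, and Ripk3 was within the background range on every array. Mean signals of Oasl1 (3.50), Ddx60 (3.56) and Parp14 (4.57) lay within that range too, as did those of the genes closest to Ripk3. Among the 9 genes themselves the closest pairs were Fas with Zbp1 (r = 0.70) and Tnfrsf1a with Zbp1 (0.63), and Casp8 with Cflar, its partner, gave 0.47.

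The rest of the cell death machinery was described from 6 lists that together held 82 genes, 74 of them measured. In the mean of 4 strains 3 rose and 0 fell, 4.05% against 0.726% of all genes, and the median difference was -0.01, the same as over all genes to 2 decimals. The lists were chosen with earlier results of these data known, so these shares are a description and not an independent comparison. Of 12 death receptors and ligands none passed: Tnfsf10 (TRAIL) differed by 0.16 (adjusted p = 0.28) and Ngfr, a receptor with a death domain, by 0.09 (0.47). Tnf differed by 0.07 and Fasl by 0.03. Mean signals of Tnfsf10 (4.28), Tnf (3.81) and Fasl (3.35) lay in the background range, and that of Ngfr (3.30) lay below its lower end. Of 15 receptor adaptors and ubiquitin enzymes none passed: Birc3, a ubiquitin ligase that acts on Ripk1, differed by 0.15 (0.46) and Traf2 by -0.12 (0.53). Birc3 had a mean signal in the background range (4.30). None of 9 kinases and kinase partners that act in the survival arm passed. Tab3, a partner and not itself a kinase, was at -0.13 (0.25). Tbk1, which phosphorylates Ripk1, was at -0.09 (0.45).

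The 3 genes that rose were Eif2ak2, Tlr3 and Casp1. Eif2ak2 (17347355), the interferon-induced kinase PKR that binds double-stranded RNA, rose by 0.72 ± 0.10 (adjusted p = 2.4e-04), with 0.83 in FVB, 1.15 in C57, 0.80 in C3H and 0.08 in SV129. Tlr3 (17509101), an endosomal receptor for double-stranded RNA that signals to Ripk3 through Ticam1, rose by 0.20 ± 0.04 (adjusted p = 0.014), while Ticam1 itself differed by 0.02. Both belonged to the 14 other triggers and modulators of Ripk3 and Mlkl. Casp1 (17514424), the inflammasome protease of pyroptosis, rose by 0.37 ± 0.08 (adjusted p = 0.015), from -0.11 in SV129 to 0.92 in FVB, and was the 1 gene of 9 on the pyroptosis list to pass; an ordinary linear model gave it an adjusted p of 0.064. Of 15 apoptosis executors and Bcl2 family genes none passed, with Bcl2, which protects mitochondria, at -0.17 (0.22) and Bak1, which permeabilizes them, at -0.18 (0.25). Zbp1, Eif2ak2, Tlr3 and Casp1 each had their smallest difference in SV129. So did the medians of the interferon-stimulated list (0.37 in SV129, 0.81 to 1.36 in the other strains) and the microglia list (0.10 in SV129, 0.37 to 0.45 in the others). The pattern is thus not particular to these genes, and it is given as a description with no test of the strains.

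**Figure D5:**
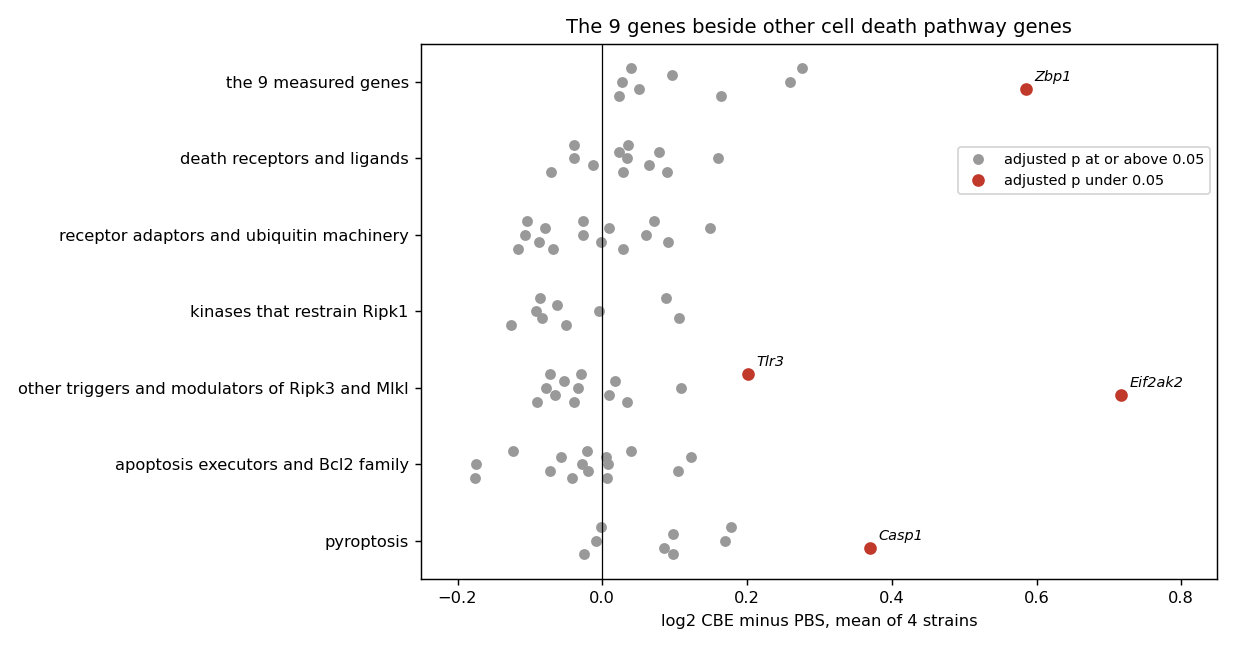
Log2 CBE minus PBS in the mean of 4 strains (x axis) for the 9 genes and for the 74 measured genes of 6 cell death lists (rows); each point is a gene, red where adjusted p was under 0.05, and the vertical offset within a row carries no value. Zbp1, Eif2ak2 (0.72), Tlr3 (0.20) and Casp1 (0.37) are the red points, and grey points lie between -0.18 and 0.28.

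Promoter sequences were searched because the interferon-stimulated list changed beside Zbp1. RefSeq promoters (build GRCm38.p6, 250 bases before to 50 after the start of transcription) were held for 8 of the 9 measured genes; Zbp1 has no entry. The letters GAAA, any 2 bases and GAAA again, the core of the element bound by interferon-activated factors, were searched on both strands. So were TTC, any 3 bases and GAA, the palindrome that Stat dimers bind; matches of the 2 motifs did not overlap in these genes. Of all 32851 promoters 3.44% held the first and 8.3% the second. The first was found for 2 of the 8 genes, Tnfrsf1b and Cflar, and for 24 of the 99 genes with an entry among the 135 that rose (24.2%). A gene that rose was counted if any of its entries matched, while the share of all promoters is per entry, so these shares are in unlike units. Tnfrsf1b and Cflar are printed from 150 bases before the start to 30 after it, because they carry the letters and did not pass the test, beside Eif2ak2, which carries them and rose. Capitals mark the match.
Tnfrsf1b, chr4:145246841-145247020, minus strand: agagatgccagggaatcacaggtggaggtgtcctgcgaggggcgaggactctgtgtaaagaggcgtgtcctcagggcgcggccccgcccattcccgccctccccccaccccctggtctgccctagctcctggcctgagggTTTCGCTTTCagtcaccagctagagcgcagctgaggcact
Cflar, chr1:58711341-58711520, plus strand: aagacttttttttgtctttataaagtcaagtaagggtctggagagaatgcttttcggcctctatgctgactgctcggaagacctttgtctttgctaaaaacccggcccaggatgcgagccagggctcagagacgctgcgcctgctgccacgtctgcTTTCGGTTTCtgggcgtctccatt
Eif2ak2, chr17:78882543-78882722, minus strand: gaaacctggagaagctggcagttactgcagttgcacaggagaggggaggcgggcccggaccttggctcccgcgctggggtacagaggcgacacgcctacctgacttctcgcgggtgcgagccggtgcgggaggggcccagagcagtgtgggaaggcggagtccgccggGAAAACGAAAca

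The match lies in the 10 bases just before the start in Tnfrsf1b, begins 6 bases after it in Cflar and 18 bases after it in Eif2ak2. Beside these sequences, the mean differences were 0.10 for Tnfrsf1b, 0.02 for Cflar and 0.72 for Eif2ak2. The second motif was found for 3 of the 8 genes, Tnfrsf1a, Tnfrsf1b and Fas, whose differences were 0.26, 0.10 and 0.28, of which 0 of 3 passed the test. A match describes letters in this window and is not evidence that a factor binds there.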

How the data were processed

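RNA of the brain slice that contained the cortex was hybridised to whole-transcript arrays, 1 for each of 24 samples. The deposited values are log2 signal for 41034 probe sets, made by the authors with RMA and Partek per the submitters' processing notes (no version is named there). The base of the logarithm was inferred from the values, which run from 2.43 to 14.1. Arrays have no depth; their number limits precision, with a median SE of 0.10 for 1 strain and 0.05 for all 4 averaged.

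Of the probe sets, 23521 had 1 symbol in the platform annotation, 1814 had several and 15699 had none listed; the brightest probe set per symbol left 22180 genes. limma 3.58.1 in R 4.3.3 fitted 8 group means with moderated variances (16 residual degrees of freedom, prior 5.10), two-sided, adjusted over all genes. The procedure was run on simulated data, with changes made equal in all 4 strains and 1 spread per gene. The differences reported here were unequal between strains, so that run does not measure how reliable they are. The labels do not say that replicate numbers pair the samples. Deviations of same-numbered PBS and CBE samples of a strain correlated above 0.1 in 3 of 12 checks, with values from -0.19 to 0.20. Differently numbered samples were not compared, so this cannot exclude pairing or a batch by number.

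All 9 genes are named. Of each pathway list, the genes past the threshold or else the 2 of smallest p are named; Tnf, Fasl and Ticam1 were added for their role after their values were seen. The 5 most alike genes are named for Ripk3 and Zbp1, leaving out predicted genes, clones and RNA genes. Genes and lists were chosen with earlier results of these data known. The alternatives tried are given in the closing section.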

Additional observations from a re-analysis of the deposited data

Results flagged for a closer look

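In 7 of 54 comparisons between strains, from 3 of the 9 genes, all 3 CBE arrays lay below their strain's PBS mean in 1 strain and above it in the other. Such a pattern occurs for 28.1% of all genes, and limma's test of each difference did not pass. For Casp8 the response in SV129 was lower than in FVB by a difference of -0.44 (adjusted p = 0.67), than in C57 by -0.69 (0.41) and than in C3H by -0.76 (0.48). For Cflar, the response in SV129 minus that in FVB was -0.29 (adjusted p = 0.75) and minus that in C57 was -0.24 (0.75). Without SV129 PBS array 1 the SV129 difference of Cflar was 0.075, no longer below 0. The C57 comparisons of Cflar and Mlkl each rest on a near tie. For Cflar, C57 CBE array 3 lay 0.00012 above the PBS mean, and for Mlkl, C57 CBE array 1 lay 2.3e-05 above it. For Mlkl, within the background range, the response in FVB minus that in C57 was -0.24 (adjusted p = 1.00) and minus that in C3H was -0.29 (1.00).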

How the results depend on the processing

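Beside the reported fit, the alternatives were array centring, quantile normalization, a filter on dim genes, the mean of a gene's probe sets, every probe set, a trended robust prior, an ordinary linear model, a replicate block, each strain's own 6 arrays, the mean without SV129 and each array left out. Of 1827 values for single genes under these, 1787 kept direction and side of the threshold. Many of these could not change direction, so the total does not measure robustness. Leaving out an array of 1 strain leaves the differences of the other strains as they were. Changes of the variance model or the block leave every difference as it was. The count of the 9 genes that passed in C57 went from 1 to 0 with every probe set tested and in the ordinary linear model, and ran from 0 to 1 when arrays were left out. In the mean of 4 strains it was 0 in the ordinary linear model, 2 with the replicate block (Zbp1 and Fas, the latter at adjusted p = 0.025) and 1 to 2 with arrays left out. Among PBS groups it was 1 with the replicate block and 0 to 1 with arrays left out. Whether the numbers pair the samples is not known, so the block is given beside the reported fit. The cause of these changes was not tested. Over all genes, calls in the mean of 4 strains ran from 110 to 244, in C57 from 30 to 136, in FVB from 20 to 85, in SV129 from 4 to 219, in C3H from 0 to 52, for the interaction from 0 to 25 and among PBS groups from 1993 to 3140.

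Small differences changed sign. In SV129, Tnfrsf1b was -0.029 with centred arrays and -0.025 with quantile normalization, and Mlkl was -0.014 with centred arrays. With single arrays left out, SV129 differences ran from -0.094 to 0.11 for Tnfrsf1b, -0.0038 to 0.34 for Fas, -0.26 to 0.075 for Cflar, -0.079 to 0.045 for Ripk3 and -0.00098 to 0.075 for Mlkl. FVB differences ran from -0.0030 to 0.23 for Tnfrsf1b, -0.029 to 0.053 for Fadd, -0.067 to 0.33 for Casp8 and -0.024 to 0.097 for Ripk3. C57 differences ran from -0.066 to 0.30 for Tnfrsf1b and -0.014 to 0.071 for Fadd. C3H differences ran from -0.18 to 0.073 for Fadd, -0.21 to 0.12 for Cflar and -0.025 to 0.098 for Ripk3. In the mean of 4 strains Fadd ran from -0.011 to 0.053 and Cflar from -0.016 to 0.074. The filter on dim genes kept 5 of the 9 genes and left out Tnfrsf1b, Fadd, Ripk3 and Mlkl, so it gives them no value; signal near background limits what can be said of them.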
